A study of Homo sapiens with 4 samples.

Results

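The ZBTB genes encode transcription factors that carry a BTB domain at one end and C2H2 zinc fingers at the other. They were chosen by gene symbol alone, as the rows of the deposited table named ZBTB, a number and at most an A or B, which gave 38 genes of 21372. No measured value decided which genes belong. The family as a whole was selected on the basis of earlier results for the contrast described here, P5CS immunoprecipitate (IP) against input, so the counts and medians over the family are given as a description. Of the 38 genes, 37 had enough counts to be tested.

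In ZBTB proteins the zinc fingers read DNA and the BTB domain pairs the proteins into dimers and recruits corepressor complexes or a CUL3 ubiquitin ligase, so most members act as transcriptional repressors. Members are known for fate choices of blood cells (ZBTB7A, ZBTB7B), binding of methylated DNA (ZBTB4, ZBTB33, ZBTB38), telomere binding (ZBTB48) and partnership with MYC (ZBTB17). The values here concern their mRNAs, not the proteins.

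The study used NCI-H1299, an established human line of lung cancer, grown in medium with serum, and the labels name no treatment, transgene or knockdown. The 2 groups were P5CS IP and input, with 2 libraries each. P5CS, the product of ALDH18A1, makes the precursor of proline inside mitochondria, and the series asks which RNAs this enzyme binds. In RNA immunoprecipitation sequencing, an antibody recovers a protein with its bound RNA, and the RNA is counted beside an input that was not precipitated. The design text speaks of LACE-seq with P5CS and IgG antibodies, while the sample titles name P5CS and input, which the groups follow. The deposited columns of both groups carry the word Cyto, and the labels do not say whether a cytoplasmic fraction was used or how the input relates to it, so what the input stands for is known only as far as its name. No IgG or mock precipitate was analysed here, so each difference is a larger or smaller share of IP RNA than of input RNA. Recovery of a transcript and change in the rest of the RNA pool cannot be told apart, nor can the number of cells holding a transcript and its amount per cell. Nothing in the labels says whether replicate libraries stem from independent cultures. The p-values therefore reflect the spread of these 4 libraries alone, and that spread may be technical.

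Each P5CS IP library held 31489455 to 34730866 gene counts, and each input held 40911717 to 46339235. Most low counts were even, as when both mates of a read pair are counted. Vimentin (VIM) stood at 3330 and 3083 CPM (counts per 1000000 of the library size, scaled by the TMM method) in P5CS IP and at 4372 and 4344 CPM in input. The keratin KRT18 stood at 269.6 and 267.3 CPM in P5CS IP and at 513.4 and 533.6 CPM in input. The epithelial marker EPCAM (0 counts in both IP libraries, 8 and 6 in the inputs) and the lung lineage factor NKX2-1 (20 and 52 counts in the IP, 8 and 0 in the inputs) were at or near 0. The leukocyte marker PTPRC had 4 and 6 counts in the IP and 6 and 8 in the inputs.

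ZBTB mRNAs made up a larger share of the P5CS IP than of the input. Together the 38 genes took 0.195% and 0.198% of the counts in the P5CS IP libraries, against 0.0623% and 0.0601% in the inputs. On the TMM-scaled measure they summed to 1766 and 1817 CPM in P5CS IP, against 678.1 and 665.2 CPM in input. ZBTB38 alone supplied 21.4% and 21.2% of the family's IP counts, against 15.3% and 15.5% of its input counts. Without ZBTB38 the sums were 1389 and 1431 CPM in P5CS IP, against 574.3 and 561.9 CPM in input. The IP sums stood above both inputs with or without that gene. The family was singled out from this contrast, so these sums are a description only.

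Of the 37 genes tested, 26 were higher in P5CS IP, 1 was lower and the remaining 10 missed the threshold (edgeR quasi-likelihood test on all 17304 genes, adjusted p under 0.05 by Benjamini-Hochberg over all of them, as for every edgeR p below). Over all genes tested, 25.4% were higher and 25.6% were lower. Since the family was singled out from this contrast, nothing is read from its share against the share of all genes, here or in the counts that follow. Changes of at least 2-fold were seen for 17 of the 26 higher members, and 15.0% of all genes tested were higher by that much. Both IP libraries lay above both inputs in CPM for 31 of the 37 members, against 37.7% of all genes tested. In 3 members both IP libraries lay below both inputs, and in the other 3 the groups overlapped. The shares of all genes in these states are not given here, so it cannot be said whether these counts are few. The median log2 fold change of the tested members was 0.87, with quartiles of 0.47 and 1.52, whereas the median of all genes tested was -0.01, with quartiles of -0.78 and 0.79.

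**Figure D1:**
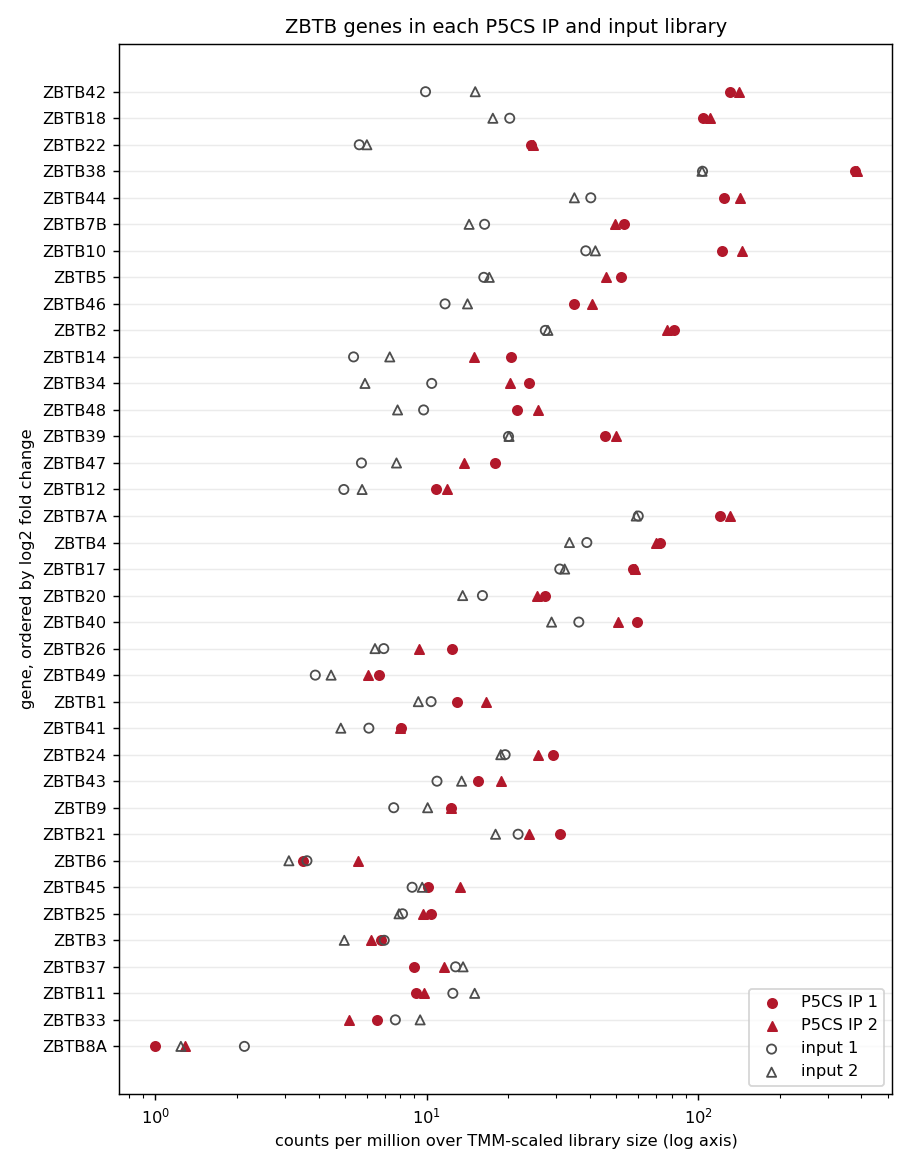
CPM on a log axis of the 37 tested ZBTB genes in each library, with filled red symbols for P5CS IP 1 and 2, open grey symbols for input 1 and 2, and genes ordered by log2 fold change. In 31 genes both filled symbols lie to the right of both open ones, and in ZBTB37, ZBTB11 and ZBTB33 both lie to the left.

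The 6 members with the highest fold changes included a pair of close relatives, ZBTB42 and ZBTB18. ZBTB42 (chromosome 14, 104800554 to 104804712, RefSeq on GRCh38.p14, as for all positions here), a repressor known from skeletal muscle, had 130.6 and 141.1 CPM in P5CS IP, against 9.90 and 15.1 CPM in input. Every IP library was far above every input, and P5CS IP stood 10.8-fold above input (log2 fold change 3.44, SE 0.170, edgeR adjusted p = 5.36e-08). ZBTB18 (chromosome 1, 244048491 to 244057476), a repressor needed for the development of the cerebral cortex in mice, had 104.4 and 110.5 CPM in P5CS IP, against 20.2 and 17.5 CPM in input. Its groups were likewise well apart, P5CS IP being 5.70-fold above input (log2 2.51, SE 0.111, edgeR adjusted p = 2.64e-08). These values stood above those of 98.6% and 96.9% of all genes tested.

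ZBTB22 followed, at 24.3 and 24.6 CPM in P5CS IP, against 5.64 and 6.02 CPM in input. Replicates agreed closely in both groups, and the difference was 4.20-fold (log2 2.07, SE 0.169). ZBTB44 had 124.3 and 142.2 CPM in P5CS IP, against 40.2 and 35.0 CPM in input, a 3.54-fold difference (log2 1.83, SE 0.111). For ZBTB7B, or ThPOK, which commits developing T cells to the CD4 lineage, the values were 53.4 and 49.3 CPM in P5CS IP, against 16.3 and 14.3 CPM in input. Its difference was 3.35-fold (log2 1.75, SE 0.130), and the groups did not overlap. All 3 genes passed the test (edgeR adjusted p = 2.15e-06, 2.34e-07 and 1.06e-06).

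Of the 3 members known to bind methyl-CpG, ZBTB38 and ZBTB4 were higher and ZBTB33 did not pass. ZBTB38 (chromosome 3, 141324186 to 141449792) had 377.3 and 386.1 CPM in P5CS IP, against 103.8 and 103.4 CPM in input. P5CS IP exceeded input 3.68-fold (log2 1.88, SE 0.0781, edgeR adjusted p = 1.74e-08) with little spread within either group. ZBTB4 had 72.2 and 69.7 CPM in P5CS IP, against 38.9 and 33.6 CPM in input, and was higher (log2 0.97, SE 0.110). ZBTB33, or Kaiso (chromosome X, 120250812 to 120258398), a partner of p120 catenin, had 6.53 and 5.18 CPM in P5CS IP, against 7.66 and 9.45 CPM in input. Both its IP libraries lay below both inputs, but the call was not reached (log2 -0.55, SE 0.242, edgeR adjusted p = 0.0834). It passed as lower with gene model length accounted for (log2 -0.75, edgeR adjusted p = 0.0244) and with library sizes taken over protein-coding genes (log2 -0.80, edgeR adjusted p = 0.0168).

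Among 8 members known for blood and immune cell roles, 7 were tested, of which 6 were higher and none was lower. Their median was 0.87 on the log2 scale. ZBTB7A, or LRF, a silencer of fetal globin genes, had 119.9 and 131.1 CPM in P5CS IP, against 60.2 and 59.2 CPM in input. ZBTB17, or MIZ1, the zinc finger partner through which MYC represses genes, had 57.3 and 58.3 CPM in P5CS IP, against 30.9 and 32.2 CPM in input. Both genes were higher with no overlap between the groups (log2 1.07, SE 0.0927, and log2 0.87, SE 0.106). ZBTB46, a marker of classical dendritic cells, stood at 1.54 (SE 0.154), ZBTB24, mutated in an immunodeficiency with centromere instability, at 0.53 (SE 0.141) and ZBTB1, needed for lymphoid development in mice, at 0.58 (SE 0.193), all on the log2 scale. The calls of ZBTB24 and ZBTB1 ended with the length trend removed (0.18 and 0.33, edgeR adjusted p = 0.329 and 0.179), with protein-coding totals and with some libraries left out, as given further on. ZBTB25 did not pass. ZBTB32 was the member left untested, with 4 and 4 counts in P5CS IP, against 2 and 38 counts in input. Its inputs differ too widely between them for a level to be read. ZBTB16, or PLZF, and ZBTB8B are not analysed here.

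The other groups of members named by their known roles were small. Of 5 genes tied to p53 or to the cell cycle inhibitor p21, 4 were higher and the fifth did not pass, and their median was 0.97 on the log2 scale. In this group ZBTB5, a repressor of the p21 gene, had 51.8 and 45.7 CPM in P5CS IP, against 16.2 and 17.0 CPM in input (log2 1.55, SE 0.128), while ZBTB49 stood at 0.61 without reaching the threshold (SE 0.261, edgeR adjusted p = 0.0728). All 3 members tied to telomeres or chromosome structure were higher. ZBTB10 had 122.6 and 145.6 CPM in P5CS IP, against 38.5 and 41.8 CPM in input (log2 1.74, SE 0.110). ZBTB48, or TZAP, a telomere-binding protein, had 21.5 and 25.7 CPM in P5CS IP, against 9.74 and 7.81 CPM in input (1.43, SE 0.183). For ZBTB40 the log2 fold change was 0.76 (SE 0.138). Once the trend with model length was removed it was no longer called (0.34, edgeR adjusted p = 0.0650). Of 4 members known for nerve, muscle or liver roles, ZBTB42, ZBTB18 and ZBTB20 were higher and ZBTB45 did not pass. The call of ZBTB20 ended with the length trend removed (0.21, edgeR adjusted p = 0.308).

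The remaining higher members ran from ZBTB2, which also represses the p21 gene (81.8 and 76.6 CPM in P5CS IP, against 27.3 and 28.0 CPM in input, log2 1.52, SE 0.104), down to ZBTB21 (30.9 and 23.8 CPM in P5CS IP, against 21.7 and 17.9 CPM in input, log2 0.47, SE 0.168). Between these lay ZBTB14 (log2 1.48), ZBTB34 (1.44), ZBTB39 (1.25), ZBTB47 (1.23), ZBTB12 (1.08), ZBTB26 (0.70) and ZBTB43 (0.49). In all of them both IP libraries lay above both inputs.

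**Figure D2:**
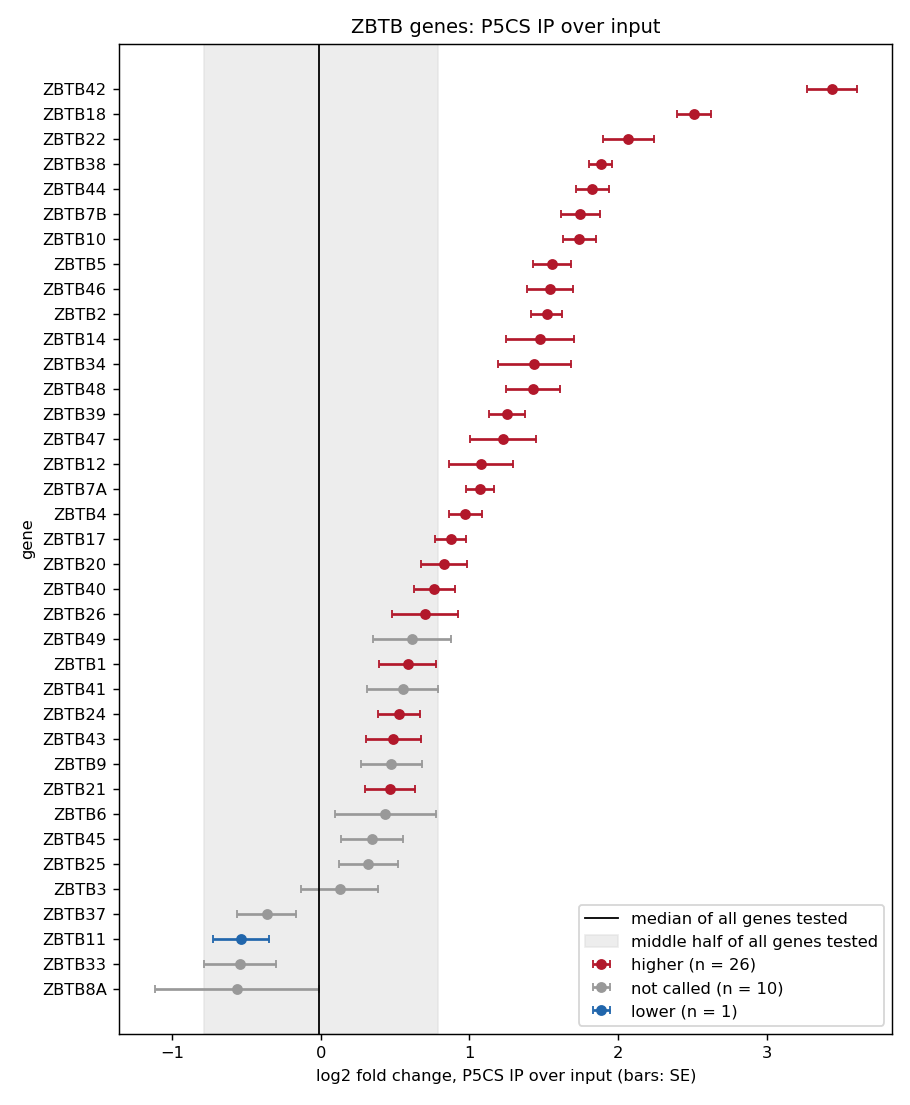
Log2 fold change of P5CS IP over input for the 37 tested ZBTB genes, with bars for the SE, red for higher, grey for not called and blue for lower, beside the median (line) and interquartile range (shaded) of all genes tested. The values run from 3.44 for ZBTB42 to -0.56 for ZBTB8A, and 26 genes are called higher.

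At the other end, 4 members had negative fold changes. ZBTB11 (chromosome 3, 101648889 to 101677132), which controls nuclear genes for mitochondrial proteins, had 9.15 and 9.79 CPM in P5CS IP, against 12.5 and 15.0 CPM in input. It was the one member called lower (log2 -0.54, SE 0.189, edgeR adjusted p = 0.0341), and both IP libraries lay below both inputs. By edgeR its call ended without the first P5CS IP library (-0.49, adjusted p = 0.118), without the second (-0.55, 0.0766), without the second input library (-0.40, 0.203) and with total-count scaling (-0.27, 0.260). In DESeq2 it was likewise not called (-0.52, adjusted p = 0.0898). ZBTB37 had 8.94 and 11.6 CPM in P5CS IP, against 12.8 and 13.6 CPM in input, with no call (log2 -0.36, SE 0.195, edgeR adjusted p = 0.147). It passed as lower with model length accounted for (-0.96, edgeR adjusted p = 0.00147) and with library sizes over protein-coding genes (-0.62, edgeR adjusted p = 0.0200). ZBTB8A was scarce, at 0.993 and 1.28 CPM in P5CS IP, against 2.13 and 1.24 CPM in input, and its groups overlapped (-0.56, SE 0.552).

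The other members that did not pass had small positive values. ZBTB3 had 6.80 and 6.23 CPM in P5CS IP, against 6.97 and 4.97 CPM in input, with overlapping groups (log2 0.13, SE 0.260). ZBTB25 had 10.4 and 9.67 CPM in P5CS IP, against 8.14 and 7.90 CPM in input (0.32, SE 0.200), groups that lay apart by little. The sign of ZBTB3 turned without the second input library (-0.10) and with sizes over protein-coding genes (-0.13), and that of ZBTB25 turned with model length accounted for (-0.19). With total-count scaling 5 members that had missed the threshold became higher, namely ZBTB25 (0.59, edgeR adjusted p = 0.0308), ZBTB45 (0.61, 0.0280), ZBTB49 (0.88, 0.0152), ZBTB41 (0.82, 0.0150) and ZBTB9 (0.74, 0.0104). That scaling also moved the median of all genes to 0.25. ZBTB6, ZBTB9, ZBTB41, ZBTB45 and ZBTB49 lay between 0.34 and 0.61. Members that did not pass had mean input levels of 1.68 to 13.2 CPM and SEs of 0.195 to 0.552, whereas those called higher had 5.36 to 103.6 CPM and SEs of 0.0781 to 0.246. The ranges overlap: ZBTB12 was called higher at a mean input of 5.36 CPM (SE 0.216), and ZBTB37 was not called at 13.2 CPM (SE 0.195). The scarcest tested members, ZBTB8A and ZBTB6, were measured least precisely (SE 0.552 and 0.337). A missed threshold does not show that IP and input were alike.

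Per length, the order of the members differed between IP and input. The deposited FPKM (CPM on the plain library total, per kilobase of gene model) was highest in P5CS IP for ZBTB38 (49.8 ± 0.448 FPKM), ZBTB42 (40.0 ± 1.90), ZBTB2 (28.0 ± 1.51) and ZBTB18 (27.9 ± 0.924; SD, n = 2 each). In input it was highest for ZBTB38 (11.2 ± 0.163 FPKM), ZBTB17 (10.3 ± 0.185), ZBTB2 (8.12 ± 0.0327) and ZBTB7A (8.07 ± 0.190; SD, n = 2 each). ZBTB42 ranked second of 38 members in P5CS IP and stood at rank 14 in input, with 3.06 ± 0.865 FPKM. The adjacent levels of ZBTB2 and ZBTB18 in P5CS IP differed by less than the spread between libraries. In input, the levels of ZBTB2 and ZBTB7A differed by less than the spread of ZBTB7A, though not of ZBTB2. The lowest tested member in both groups was ZBTB8A (0.176 ± 0.0303 FPKM in P5CS IP and 0.217 ± 0.0832 FPKM in input; SD, n = 2 each). FPKM divides by the library total without TMM scaling, so it was used for order within a group only.

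Gene model length, recovered from the deposited counts and FPKM, was set beside the fold change among the members and among genes at large, and no difference was tested. Over all 17304 genes tested, longer models went with higher fold changes: the median log2 fold change was -0.83 in the shortest 10% of genes (up to 945 nt) and 0.49 in the longest 10% (8333 nt and above), with a Spearman correlation of 0.27 across genes. Across the 37 members it was -0.17, over a narrower range of lengths (1963 to 31673 nt, against 58 to 347964 nt for all genes). The shortest classes of genes, with the lowest medians, hold no member. The correlations therefore cover unlike ranges and do not show that length acts differently among the members. Both values are descriptions, since genes in one set of libraries are not independent replicates. The members had longer models than genes at large, with a median of 5685 nt against 3424 nt.

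The 12 members with the shortest models (1963 to 4099 nt) had a median log2 fold change of 0.98, and 7 of them were higher. In the 13 of middle length (4212 to 7052 nt) the median was 1.23 and 12 were higher. In the 12 longest (7077 to 31673 nt) the median was 0.54 and 7 were higher. Among all genes tested, the share called higher rose with length. It was 13.9% at 1634 to 2209 nt, 31.2% at 4148 to 5010 nt, 38.8% at 6245 to 8328 nt and 46.0% from 8333 nt. Nothing is read from the members' counts against these shares. ZBTB12, with the shortest model (1963 nt), had 10.8 and 11.8 CPM in P5CS IP, against 4.95 and 5.78 CPM in input (log2 1.08, SE 0.216). ZBTB20, with the longest (31673 nt), a repressor of alpha-fetoprotein in liver, had 27.2 and 25.5 CPM in P5CS IP, against 16.0 and 13.6 CPM in input (0.83, SE 0.153). ZBTB45 had 10.1 and 13.3 CPM in P5CS IP, against 8.83 and 9.62 CPM in input, close but not overlapping groups, and its reads may be shared with the pseudogenes ZBTB45P1 and ZBTB45P2. The short models of ZBTB48 (2347 nt) and ZBTB45 (2546 nt) stood at 1.43 and 0.34, and the long ones of ZBTB37 (19437 nt) and ZBTB25 (12222 nt) at -0.36 and 0.32. Of the 37 members, 32 lay above the median of all genes of like length, taken as the 10% of genes in the same length class. That median splits all genes of the class evenly, and the family was singled out from this contrast, so nothing is read from the 32.

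With the length trend removed from every library, 20 members were higher and 3 lower, and the median was 0.70. The members that lost their call there were ZBTB1, ZBTB20, ZBTB21, ZBTB24, ZBTB26, ZBTB40 and ZBTB43. ZBTB21 then stood at 0.12 (edgeR adjusted p = 0.619), ZBTB43 at 0.16 (0.496) and ZBTB26 at 0.55 (0.0602). ZBTB9 became higher there (0.56, edgeR adjusted p = 0.0437) and without the second input library (0.70, 0.0279). Among the 7 genes, ZBTB1 and ZBTB43 also lost the call when the second P5CS IP library was dropped (0.178 and 0.210), ZBTB21, ZBTB24 and ZBTB26 without the first (0.272, 0.0558 and 0.186), ZBTB43 without the first input (0.239), and ZBTB1, ZBTB21 and ZBTB26 without the second input (0.0996, 0.201 and 0.0608), each an edgeR adjusted p. With library sizes over protein-coding genes ZBTB1, ZBTB21, ZBTB24, ZBTB26 and ZBTB43 lost the call (edgeR adjusted p = 0.183, 0.331, 0.136, 0.121 and 0.325), and ZBTB43 also lost it in DESeq2 (adjusted p = 0.0739). The other 19 higher members kept their call in all 14 alternatives run.

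**Figure D3:**
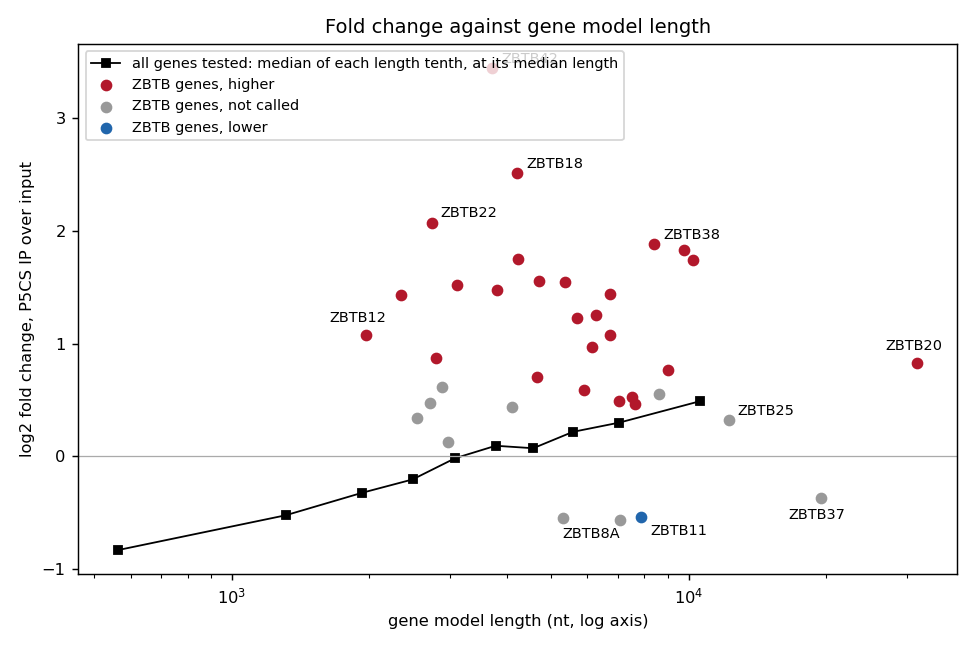
Log2 fold change of P5CS IP over input against gene model length (nt, log axis) for the 37 tested ZBTB genes, coloured by call, with black squares for the median of all genes tested in each of 10 equal length classes, placed at the median length of the class. The squares climb from -0.83 to 0.49 with length, and the shortest classes hold no ZBTB point. Of the 37 ZBTB points, 32 lie above the median of their class, in a family singled out from this contrast.

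Several members share their genomic span with another counted gene, and the sources used here give no strand setting for the counting, so reads of such partners may not be fully separated. ZBTB5 overlaps GRHPR, a glyoxylate reductase gene that was lower (log2 -1.23, SE 0.138), while ZBTB5 was higher. ZBTB46 overlaps SLC2A4RG, which was also lower (-0.58, SE 0.109). ZBTB25 overlaps both its family member ZBTB1 and MTHFD1, a folate enzyme gene (-0.42, SE 0.0876). ZBTB37 overlaps GAS5, a host gene of small nucleolar RNAs that was lower (-1.77, SE 0.117). ZBTB11 overlaps its antisense ZBTB11-AS1, which stood at 0.74 and did not pass (SE 0.457). The part of these partners in the members' values was not tested. The neighbours ZBTB43 and ZBTB34 on chromosome 9 lie 22429 bases apart and stood at 0.49 and 1.44, and ZBTB6 and ZBTB26 lie 2243 bases apart and stood at 0.43 and 0.70.

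Genes of the same protein class under other symbols, and genes of the partners, were set beside the family. Of 9 BTB zinc finger genes not matched by the naming rule, 7 were tested and 5 of these were higher, none lower, around a median of 1.54 on the log2 scale. HIC1, a tumour suppressor, had 8.91 and 12.3 CPM in P5CS IP, against 0.426 and 1.43 CPM in input (log2 3.49, SE 0.452). PATZ1 stood at 2.12, HIC2 at 1.67, GZF1 at 1.54 and ZNF131 at 0.90, while BCL6, the repressor of germinal centre B cells, stood at 0.38 (SE 0.220) and MYNN at 0.49 (SE 0.335), neither passing. Among 16 tested corepressor genes 11 were higher and 2 lower around a median of 0.41, from BCOR, which BCL6 binds (1.33, SE 0.0880), to the deacetylase HDAC3 (-0.58, SE 0.140).

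Of 48 tested genes for CUL3, its partners and BTB proteins without zinc fingers, 23 were higher, 4 were lower and the median was 0.53, from KBTBD11 (2.71, SE 0.363) to RBX1, the RING subunit of the ligase (-2.10, SE 0.301). Of 480 tested ZNF genes, 171 were higher, 40 were lower and the median was 0.33. They ran from ZNF276 (3.83, SE 0.114) to ZNF22, which was scarce, with 4 and 4 counts in P5CS IP, against 48 and 20 counts in input. ZNF131 stands in this list and in that of other BTB zinc finger genes. The differences between these lists and the ZBTB genes were not tested. The lists also differ in gene model length. Its median was 4530 nt for ZNF genes, 4708 nt for CUL3 and other BTB genes and 4902 nt for other BTB zinc finger genes. It was 8543 nt for corepressors, against 5685 nt for the ZBTB genes. Of all genes tested, 25.4% were called higher.

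**Figure D4:**
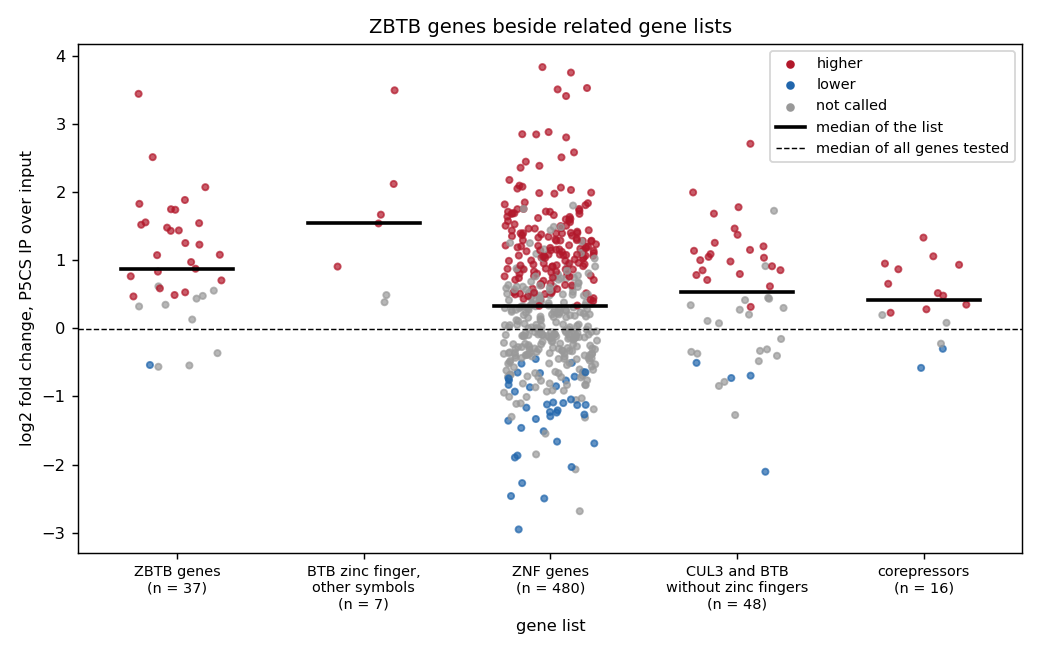
Log2 fold change of P5CS IP over input for each tested gene of 5 gene lists (points, coloured by call, with horizontal jitter only), with thick lines for list medians and a dashed line for the median of all genes tested. The medians are 0.87 for ZBTB genes, 1.54 for BTB zinc finger genes under other symbols, 0.33 for ZNF genes, 0.53 for CUL3 and other BTB genes and 0.41 for corepressors. The lists differ in median gene model length.

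The authors' deposited table marks 23 of the 38 members as enriched, against 19.0% of its 21372 genes. All 23 were also called higher in the fit described above. The 3 members called higher but not marked in the authors' deposited table were ZBTB21, ZBTB24 and ZBTB43. In the authors' own comparison ZBTB21 (log2 0.488, adjusted p = 0.0431) and ZBTB24 (0.548, 0.00827) also passed the threshold used here. Only ZBTB43 (0.507, 0.0713) missed it. ZBTB1 was marked there with a higher adjusted p than ZBTB24 and a larger fold change (0.604, 0.0391). The mark therefore does not follow the adjusted p alone, and its absence is not a failed test for ZBTB21 and ZBTB24. For the tested members the log2 fold changes in the authors' deposited table differed from those given here by at most 0.0220.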

How the data were processed

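Tools listed in the submitters' processing notes are STAR 2.7.10a, fastp 0.23.2, DESeq2 and featureCounts, and the build is hg38. The sources used here give neither their settings nor the annotation. The design text speaks of LACE-seq with P5CS and IgG antibodies. Groups here follow the sample titles, and IgG libraries are not analysed here. The authors deposited 1 table with a whole-number count and an FPKM value per gene and library, and, per the file headers, a mean normalised signal (baseMean), log2 fold changes, a test score and p-values of their own comparison. The word Cyto in the count and FPKM column names is absent from the labels, so the cell fraction is not known. Columns were matched to samples by replicate number and the word Input. Of 21373 rows, 1 repeated a symbol and was dropped. About 86% of counts from 1 to 30 were even (85.8 to 86.4% per library).

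The fit used edgeR 4.0.16 under R 4.3.3, with filterByExpr, TMM, glmQLFit and glmQLFTest, over the 17304 genes kept, with no replicate term and 2 residual degrees of freedom. The SE is the absolute log2 fold change over the square root of F. TMM factors ran from 0.904 to 1.10. Gene model length was count over FPKM, scaled by the library total to whole numbers. Genes were joined to RefSeq (GRCh38.p14) by identifier, which matched 18055 of 18120, including all 38 members.

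Alternatives were other scalings, filters, DESeq2 1.42.0, halved counts, a replicate block, removal of a lowess trend on log2 length (span 0.3) and each library left out. The fit was checked on simulated data. Members, role lists and tests were chosen with earlier results of these data known. Genes named with values in each library are the 6 highest and 6 lowest members by fold change, the 5 most abundant in input, the 3 longest and 3 shortest models, and the members best known by other names. Of each other list, the highest and lowest called genes are named. Values for ZBTB2, ZBTB5 and ZBTB21 in each library were added after their values were seen, as were ZNF131 and the genes of the other BTB zinc finger list beyond HIC1. A floor of 3 counts corresponds to 0.0647 to 0.0953 CPM, which covers counting error only, because PCR duplicates cannot be told from separate molecules.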

Additional observations from a re-analysis of the deposited data

How the results depend on the processing

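The number of higher ZBTB genes stayed within 20 to 31 in the 14 alternatives, against 26. The share of all genes called higher moved too, to 32.4% with total counts (31 members), 19.7% with protein-coding totals (21 members) and 23.9% with the length trend removed (20 members). The median log2 fold change of 0.87 became 0.89 with DESeq2 size factors, 0.87 with a filter at 1 CPM in 2 libraries, 0.85 with no filter, 1.14 with total counts, 0.62 with totals over protein-coding genes, 0.70 with the length trend removed and 0.71 with that and the replicate block, and 0.84 to 0.95 when each library was left out. Total counts moved the median of all genes to 0.25 and protein-coding totals to -0.27. Another scaling shifts all genes by nearly the same amount. The family's median relative to all genes, 0.89 in both, could therefore hardly change, and nothing is read from it. The 1 lower member became 0 in DESeq2 (1 at an unadjusted p under 0.05), 0 with total counts (0 unadjusted), 3 with protein-coding totals, 3 with the length trend removed and 3 with that and the replicate block, and 0 to 1 when a library was left out. ZBTB25 turned to -0.19 with the length trend removed, with or without the replicate block, and ZBTB3 to -0.13 with protein-coding totals and to -0.10 without the second input library, against 0.39 without the first. The causes of the other changes were not tested. Replicate numbers were not shown to pair libraries (correlation 0.000153 of same-numbered deviations across genes). The replicate block alone left 26 higher, 1 lower and a median of 0.87. With 2 libraries a group, a library left out leaves the other group to give the spread. The 2 members with the lowest counts were ZBTB32, not tested, and ZBTB8A, with the widest SE (0.552).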

Other observations

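Rows beside the family carry its name without being members. ZBTB45P2, a pseudogene of ZBTB45, had 701 and 925 counts in P5CS IP, against 317 and 255 in input, and ZBTB45P1 had 145 and 167 counts in P5CS IP, against 60 and 65 in input. Both were higher (log2 1.64, SE 0.232, edgeR adjusted p = 0.000137, and log2 1.46, SE 0.367, edgeR adjusted p = 0.00654). ZBTB45 itself had 388 and 457 counts in P5CS IP, against 332 and 403 in input, and did not pass (0.34, SE 0.207). Reads may be shared between the gene and its copies, which was not tested, so all 3 values are uncertain.

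ZBTB8OS, which encodes archease, a cofactor of tRNA ligation, and no BTB protein, was lower, with 57 and 26 counts in P5CS IP, against 160 and 236 in input (log2 -2.13, SE 0.426). ZBTB7C, which the naming rule leaves out, had 16 and 0 counts in P5CS IP, against 0 and 6 in input, and was not tested.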
